A study of Mus musculus with 8 samples.

Results

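The mitochondrial ribosomal protein genes were followed across 8 libraries of mouse gastrocnemius, a calf muscle. The genes were chosen by symbol alone, as Mrpl (large subunit) or Mrps (small subunit) followed by a number. This took 77 of the 23282 rows of the count tables, 48 of the large subunit and 29 of the small. All 77 passed the filter on low counts, among the 13174 genes that were tested.

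All groups were C57BL/6 mice listed as 4 weeks old, an age that is not taken here as the age at dissection. The 2 libraries titled RP came from mice with subcutaneous Lewis lung carcinoma, a transplantable lung tumour line of mice, that were dosed by mouth each day for 2 weeks with a 30% ethanol extract of the peony Paeonia lactiflora at 100 mg/kg. The 3 titled Control came from mice with the same tumour given water, and the 3 titled Normal from mice injected with saline and given water. Mice with tumours were regrouped by tumour size before dosing. The series addressed muscle wasting in cancer. Nothing in the labels ties a library to its own animal, and the p-values therefore cover only the spread among these libraries, which may be technical. In whole muscle, a change in cell makeup and a change in RNA per cell cannot be told apart.

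The labels of 6 of the 8 libraries conflict. The deposited tables of all Normal-titled and Control-titled samples carry the other group's name, while the RP tables carry their own. Groups below follow the titles. Should the table names be the correct ones, every Control against Normal value below would take the opposite sign, and each value of RP against Control would belong to Normal and the reverse.

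Mitochondria carry their own ribosome, which translates the few proteins encoded by mitochondrial DNA, all of them subunits of the oxidative phosphorylation complexes. Its RNAs are made inside the organelle, whereas its proteins are encoded in the nucleus, made in the cytosol and imported. Some of these proteins have counterparts in the bacterial ribosome and others were added during the evolution of mitochondria. The large subunit forms peptide bonds and the small subunit reads the messenger RNA.

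Each library held between 9528011 and 12333767 counts of 3' tags. Haemoglobin genes took 0.862 and 3.83% of counts in RP 1 and 2, 1.41 to 1.61% in the Control libraries, and 4.57, 9.56 and 19.7% in Normal 1, 2 and 3. All 9 skeletal muscle markers had counts, with 13.3 to 13.8% of all counts in RP, 12.6 to 13.5% in Control and 9.10 to 10.2% in Normal. By gene, Pvalb (2.17-fold, adjusted p = 0.00067 in edgeR) and Mylpf (1.54-fold, adjusted p = 0.0321) were higher in Control than in Normal. The other muscle markers did not pass in that comparison, and Ckm, Atp2a1, Myh4 and Myh1 had estimates slightly lower in Control. All 9 erythroid markers also had counts, and together they held 0.864 and 3.84% of counts in RP, 1.41 to 1.62% in Control and 4.58 to 19.8% in Normal. Slc4a1, the red-cell anion exchanger, was the erythroid marker listed at 0, in Control 2. The 7 neutrophil markers summed to 33.5 and 469 CPM (counts scaled to the size of the library) in RP, 10.6 to 22.3 CPM in Control and 977 to 1937 CPM in Normal. Between 1 and 3 of them were at 0 in each library except Normal 3. S100a8 (23.2-fold, adjusted p = 0.0403 in edgeR) and S100a9 (20.5-fold, adjusted p = 0.0434) were higher in RP than in Control. S100a8 was at 15.4 and 233 CPM in RP 1 and 2. The other neutrophil markers tested did not pass in that comparison. Every erythroid marker and every neutrophil marker tested was lower in Control than in Normal and passed, such as Hba-a1 (0.133-fold, adjusted p = 0.00511). The 5 fibroblast and tendon markers, none at 0, summed to 6554 and 6708 CPM in RP, 7376 to 8810 CPM in Control and 4278 to 8164 CPM in Normal. Dcn, a proteoglycan gene, made up most of this sum. Of the other 4, Tnmd, a tendon gene, was at 72.7 and 42.6 CPM in RP, 69.9 to 72.2 CPM in Control and 4.66 to 13.8 CPM in Normal. Levels of single genes, here and below, also carry the TMM scaling defined in the next paragraph, whereas the marker sums do not. Tnmd was 7.22-fold higher in Control than in Normal (adjusted p = 0.000101 in edgeR) and 5.83-fold higher in RP than in Normal (adjusted p = 0.00129). The collagen genes Col3a1 and Col1a1 were 7.21-fold (adjusted p = 0.00067) and 5.46-fold (adjusted p = 0.0175) higher in Control than in Normal. Dcn (0.883-fold, adjusted p = 0.533 in edgeR) and Pdgfra (1.15-fold, adjusted p = 0.552) did not pass in that comparison, so the list did not move as a whole. Macrophage markers summed to 183 and 269 CPM in RP, 233 to 383 CPM in Control and 112 to 338 CPM in Normal. Endothelial markers summed to 253 and 215 CPM in RP, 209 to 318 CPM in Control and 211 to 316 CPM in Normal. The part of these cells in the results below was not tested.

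Because each transcript gives tags from its 3' end, levels of different genes could be compared without a correction for length. In CPM scaled by TMM factors (trimmed mean of M-values), the 77 genes had a median mean level of 54.2 CPM, against 14.4 CPM for all genes tested. Of the 77 genes, 11 lay at 100 CPM or more, and 10 of these belonged to the large subunit. A further 60 lay between 20 and 100 CPM, 4 between 5 and 20 CPM and 2 under 5 CPM. The median level was 61.9 CPM for large subunit genes and 51.5 CPM for small subunit genes.

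Mrpl53, a large subunit protein, had the highest mean level. It was at 354 and 407 CPM in RP, 379, 361 and 345 CPM in Control, and 279, 326 and 424 CPM in Normal. Mrpl42 followed with a mean of 323 CPM, Mrpl33 with 214 CPM, the small subunit gene Mrps21 with 209 CPM and Mrpl12 with 181 CPM. The counts behind these top ranks are uncertain: the 3' ends of Mrpl53 and Mrpl33 overlap the same-strand genes Gm42688 and Gm43809, and those of Mrpl42 and Mrps21 have near copies in Gm6419 and Gm6181. Mrpl53 exceeded Mrpl42, and Mrpl42 exceeded Mrpl33, in all 8 libraries. Further down the order, neighbours were close: Mrpl33 exceeded Mrps21 in 6 of the 8 libraries and Mrpl12 exceeded Mrpl18 in 5 of them. At the other end were Mrpl21 at 3.3 CPM and Mrpl15 at 3.0 CPM. The mean tag level thus ranged 121-fold between genes whose proteins belong to 1 particle, and protein levels were not measured. Every gene had counts in every library, and the lowest count was 14.

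**Figure D1:**
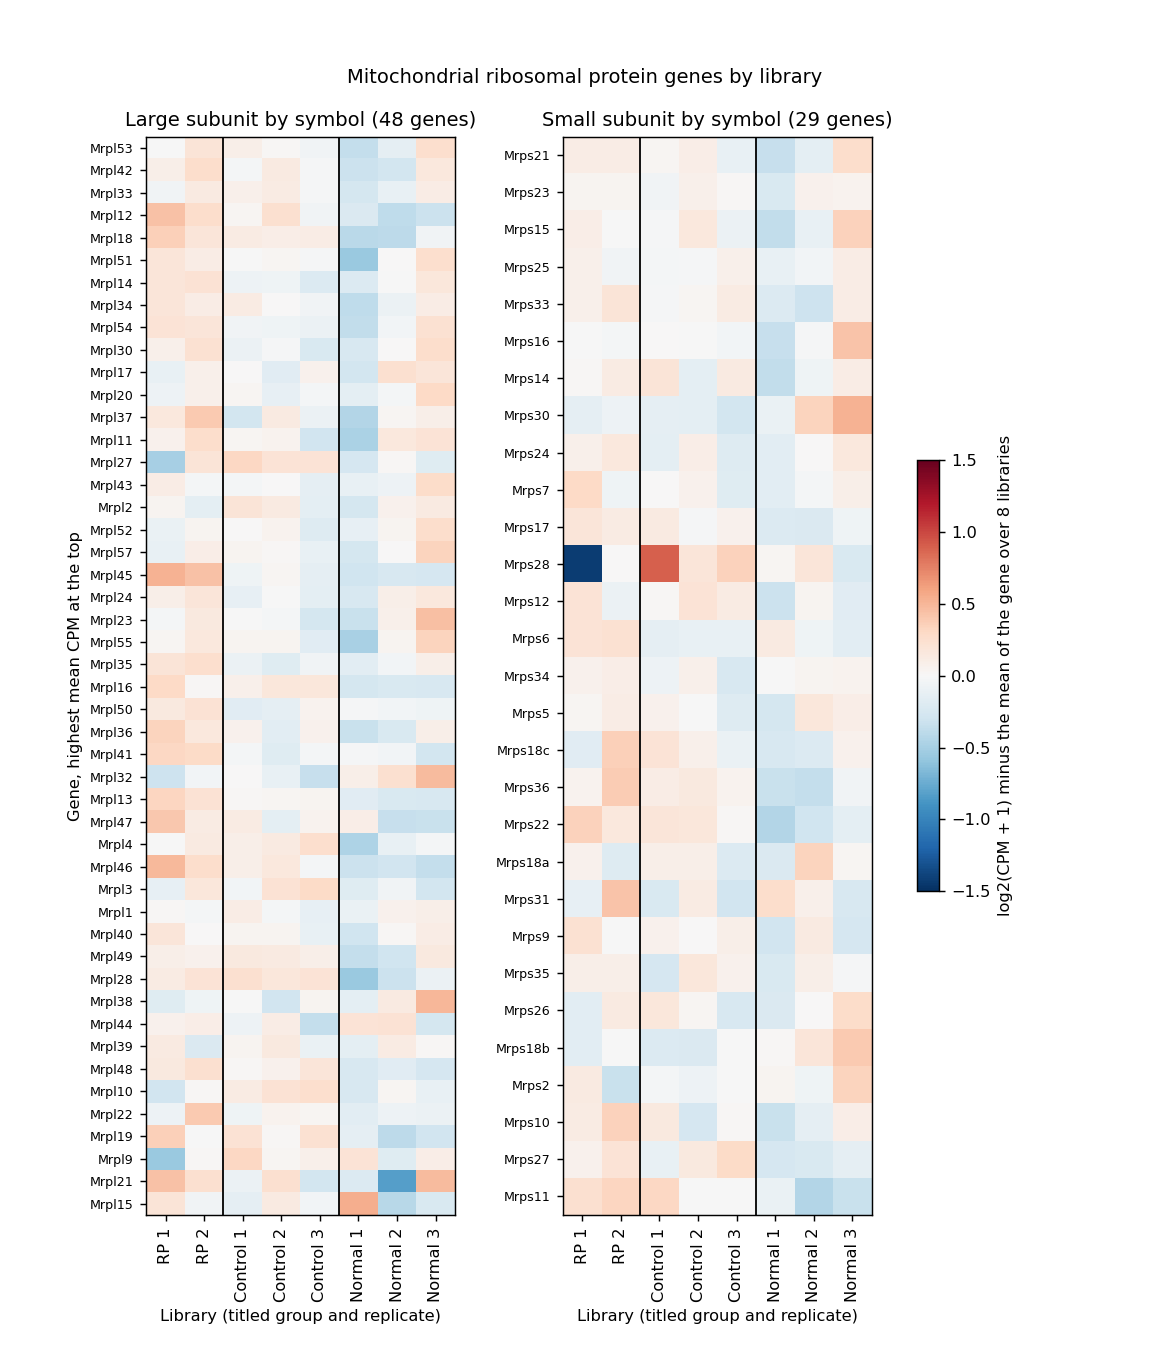
Each row is 1 of the 77 genes and each column 1 library, ordered RP, Control, Normal. Colour gives log2(CPM + 1) minus the mean of that gene over the 8 libraries, with large subunit genes on the left and small subunit genes on the right. Most rows are pale, Normal 1 is blue over many rows, and Mrps28 is the row with the strongest colours.

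Summed over the 77 genes, the level was 5799 and 6000 CPM in RP, 5552, 5596 and 5285 CPM in Control, and 4551, 5170 and 5876 CPM in Normal. The sum averaged 5899 ± 142 CPM in RP (SD, n = 2), 5478 ± 168 CPM in Control (SD, n = 3) and 5199 ± 663 CPM in Normal (SD, n = 3). Both RP libraries lay above all Control libraries, while the Normal libraries spread over nearly the whole range and overlapped both. As a share of all counts the genes held 0.565 and 0.579% in RP, 0.560 to 0.596% in Control and 0.481 to 0.521% in Normal, each with a 95% Wilson interval of at most 0.00505 percentage points to either side. Without haemoglobin genes and the ribosomal RNA row Rn45s, the shares were 0.598 and 0.620% in RP, 0.596 to 0.616% in Control, and 0.550, 0.595 and 0.636% in Normal 1, 2 and 3. The order of the groups thus depended on which counts formed the total.

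The spread among the Normal libraries was shared by many of the genes. Normal 1 had the lowest level of its group for 56 of the 77 genes, against 35.74% of all genes tested, and the lowest of all 8 libraries for 39. Normal 3, the library with the most haemoglobin, had the highest level of its group for 48 of the 77, against 33.19% of all genes, and the highest of all 8 for 23. The ratio of the highest to the lowest library within a group had a median over the 77 genes of 1.118 in RP, 1.159 in Control and 1.318 in Normal. For the 7855 genes with a mean of at least 10 CPM these medians were 1.149, 1.193 and 1.353 in the same order of groups. A ratio over 1.5 was seen for 3 of the 77 genes in RP, 2 in Control and 14 in Normal. No share over all genes was computed for these counts or for the counts over all 8 libraries, so they cannot be set against other genes.

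The large subunit genes summed to 4123 and 4280 CPM in RP, 3884, 3928 and 3707 CPM in Control, and 3148, 3585 and 4112 CPM in Normal. For the small subunit the sums were 1676 and 1720 CPM in RP, 1668, 1668 and 1578 CPM in Control, and 1403, 1586 and 1764 CPM in Normal. The ratio of the large to the small sum was 2.46 and 2.49 in RP, 2.33, 2.35 and 2.35 in Control, and 2.24, 2.26 and 2.33 in Normal. Both RP ratios exceeded all 6 others, a description to which no test was applied. Symbols do not always give the place of a protein: Mrps30 and Mrps18a sit in the large subunit, and Mrps36 is now known as a part of the 2-oxoglutarate dehydrogenase complex. With these assigned by structure (50 and 26 genes), the ratios were 2.77 and 2.80 in RP, 2.63, 2.66 and 2.64 in Control, and 2.56, 2.64 and 2.69 in Normal. RP stood above the rest and Control overlapped Normal under both assignments.

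**Figure D2:**
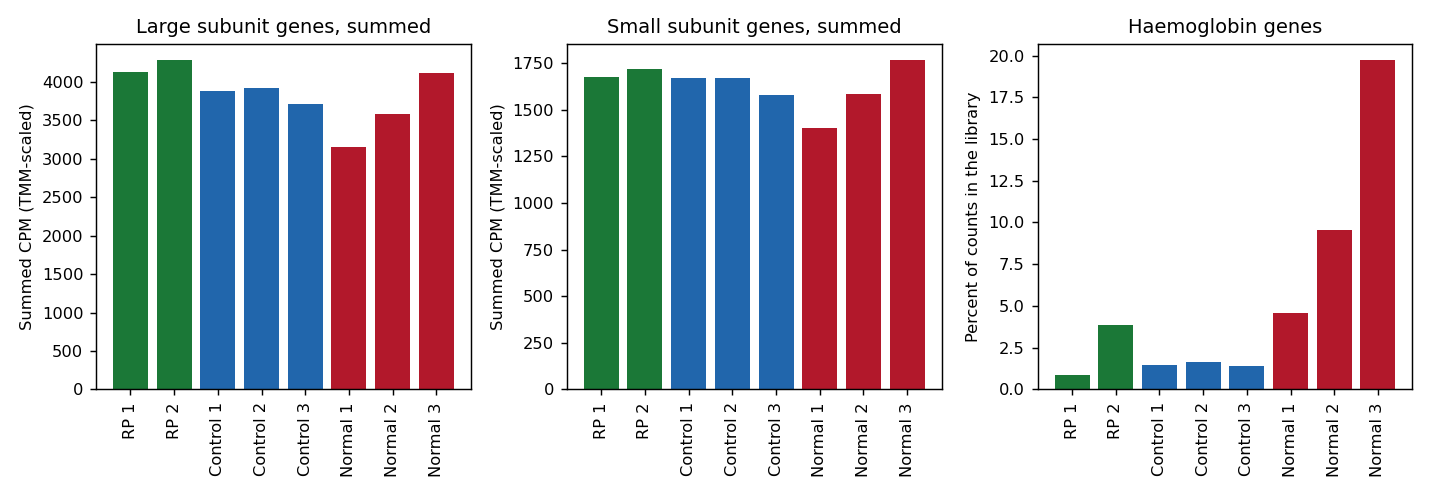
Bars give summed CPM (TMM-scaled) of the 48 large subunit genes and the 29 small subunit genes, and the percent of counts in haemoglobin genes, for each library in the order RP, Control, Normal. The large subunit sum is 4123 and 4280 CPM in RP and spans 3148 to 4112 CPM in Normal, where haemoglobin spans 4.57 to 19.7%.

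The comparison of RP with Control asked what the extract changed in muscle of mice with tumours. None of the 77 genes passed the test, none higher and none lower. Most of the estimates were small and lay above 0: the median log2 change was 0.09, against 0.00 for all 13174 genes, and 60 of the 77 were above 0, against 49.5% of all genes. Scaled by upper quartiles instead of TMM factors, 49 of the 77 were above 0, with a median of 0.06 against -0.04 for all genes. A fit with a block for the replicate number gave 64. By edgeR (quasi-likelihood, Benjamini-Hochberg adjusted p under 0.05), 0.175% of all genes passed, 0.144% higher and 0.0304% lower. At an unadjusted p under 0.05, 4 of the 77 were higher, against 3.95% of all genes, and 1 was lower, against 5.03%. DESeq2 and limma-voom also called 0 of the 77. The median was 0.12 for large and 0.08 for small subunit genes. The RP and Control libraries did not overlap for 21 genes with RP higher, 18 of them large subunit genes, against 15.3% of all genes, and for 4 with RP lower, against 16.4%. The 95% interval of the log2 change lay within -1 and 1 for 74 of the 77, against 65.5% of all genes, and the exceptions were Mrps28, Mrpl21 and Mrpl15.

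Among genes with a mean of at least 5 CPM, the most positive estimate belonged to Mrpl45, which in human mitochondria anchors the ribosome at the inner membrane near the exit of the peptide tunnel. Mrpl45 was at 97.1 and 91.6 CPM in RP and at 64.6, 68.8 and 61.4 CPM in Control. The RP libraries thus stood clear of the Control libraries, with a log2 change of 0.54 ± 0.14 (SE), but the adjusted p was 0.209 in edgeR. Next among these came Mrpl41 at 66.8 and 65.7 CPM in RP and 52.5, 47.3 and 52.4 CPM in Control (log2 change 0.38, adjusted p = 0.462). The 3' end of Mrpl41 has a near copy in Gm6434, so its count is uncertain. Mrpl37 was at 94.3 and 112 CPM in RP and 70.1, 93.3 and 79.9 CPM in Control (0.35, adjusted p = 0.63).

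Mrps28, a small subunit protein, had the most negative estimate, and among the 77 genes it had the largest ratio between libraries within RP and within Control. It was at 17.8 and 49.5 CPM in RP 1 and 2, against 92.6, 56.0 and 62.7 CPM in Control and 50.4, 56.1 and 42.0 CPM in Normal. Both RP libraries lay below the Control libraries, but RP 2 lay within the range of Normal, and the 2 RP libraries differed 2.78-fold on 165 and 481 counts. The log2 change of RP against Control was -1.07 ± 0.338 (SE; adjusted p = 0.334 in edgeR). Without RP 2 it was -1.98 (adjusted p = 0.0349), and with no filter on low counts the adjusted p was 0.00677, so this gene passed in 2 of 19 alternatives. Mrpl9 was at 11.3 and 17.4 CPM in RP and 21.4, 17.5 and 18.1 CPM in Control, with a log2 change of -0.40 (adjusted p = 0.636). Mrpl27 was at 52.7 and 85.7 CPM in RP and 93.5, 86.4 and 86.5 CPM in Control (-0.36, adjusted p = 0.621). As for Mrps28, RP 1 was the low library for both. Their counts are uncertain, since the 3' end of Mrpl27 has near copies in 20 other genes and that of Mrpl9 in 4930527F14Rik.

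**Figure D3:**
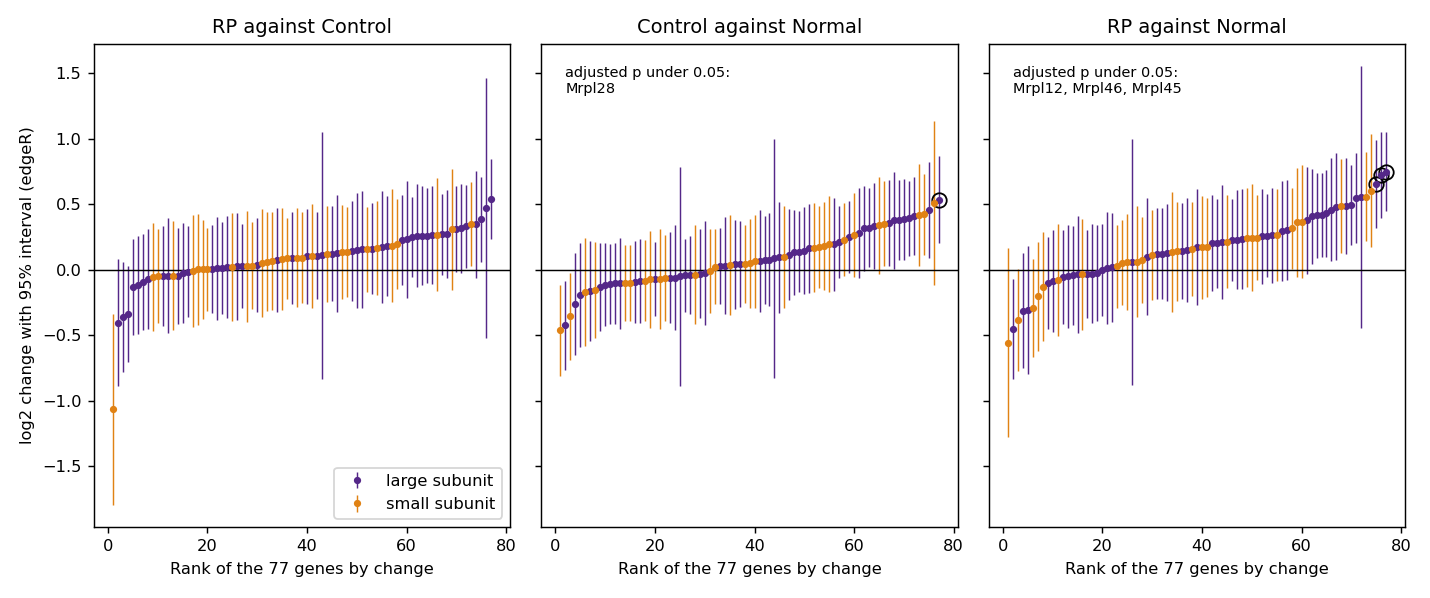
Points give the log2 change of each of the 77 genes with its 95% interval from edgeR, ranked within each comparison, with large subunit genes in purple and small subunit genes in orange. Circles mark genes past the adjusted p of 0.05: none for RP against Control, Mrpl28 for Control against Normal, and Mrpl45, Mrpl46 and Mrpl12 for RP against Normal.

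The comparison of Control with Normal addressed the effect of the tumour. Of the 77 genes, 1 passed the test, Mrpl28, which was higher in Control. Higher genes made up 4.99% and lower genes 5.45% of all genes tested, 10.4% in all. The median log2 change of the 77 was 0.05, against 0.00 for all genes, and 46 were above 0, against 50.1%. At an unadjusted p under 0.05, 13 were higher and 3 lower, against 13% and 13.3% of all genes. The libraries did not overlap for 19 genes with Control higher, against 16.6% of all genes, and for 3 with Control lower, Mrps30, Mrpl32 and Mrps18b, against 14.7%. The median was 0.07 for large and 0.04 for small subunit genes. The 95% interval lay within -1 and 1 for 76 of the 77, against 63.2% of all genes, with Mrps28 the exception. The sign of the median rested on Normal 1: without this library the median over the 77 was -0.034, with 35 genes above 0, and without Normal 3 it was 0.12.

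Mrpl28 (GRCm38 chr17:26123500-26126613), a large subunit protein with a bacterial counterpart, was at 36.9, 35.2 and 36.1 CPM in Control and at 20.9, 24.7 and 29.2 CPM in Normal. RP lay beside Control, at 33.9 and 35.9 CPM, and no Normal library reached the lowest of these 5. Control averaged 36.1 ± 0.874 CPM and Normal 24.9 ± 4.18 CPM (SD, n = 3 each), a 1.45-fold difference (log2 change 0.53 ± 0.154 (SE), adjusted p = 0.0431 in edgeR). The log2 change was above 0 in all 19 alternatives and passed in 9, over an adjusted p of 0.0165 to 0.148. The call was lost without Normal 1 (adjusted p = 0.0659), Normal 2 (0.112), Control 1 (0.148), Control 2 (0.101), Control 3 (0.126), RP 1 (0.0571) or RP 2 (0.0573), and held without Normal 3 (0.0165).

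The 3 genes that were lower in every Control library than in every Normal library did not pass. Mrps30 was at 65.5, 65.2 and 59.5 CPM in Control and at 67.4, 90.9 and 104 CPM in Normal, where the level varied most (log2 change -0.46, adjusted p = 0.087 in edgeR). Mrpl32, a protein that must be cut by the m-AAA protease after import before it joins the large subunit, was at 51.9, 47.7 and 40.5 CPM in Control and 54.8, 61.2 and 72.2 CPM in Normal (-0.42, adjusted p = 0.104). Mrps18b was at 27.1, 26.8 and 31.3 CPM in Control and 31.8, 35.8 and 41.5 CPM in Normal (-0.36, adjusted p = 0.159). Normal 3 was the highest of the 8 libraries for each of these genes. Without Normal 1, Mrps30 (-0.62, adjusted p = 0.00643) and Mrpl32 (-0.51, adjusted p = 0.0395) passed. Over the 19 alternatives Mrps30 passed in 2, including the threshold of 0.1, Mrpl32 in 1 and Mrps18b in 0. In the weakest setting of each, the log2 changes were only -0.024, -0.019 and -0.041 in the same order of genes. The adjusted p reached 0.969, 0.976 and 0.945. Mrps22, a small subunit protein with no bacterial counterpart, was at 46.3, 45.9 and 41.3 CPM in Control and 29.9, 32.9 and 36.8 CPM in Normal (0.42, adjusted p = 0.078).

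Between RP and Normal, 3 of the 77 genes rose and none fell: Mrpl45, Mrpl46 and Mrpl12, all of the large subunit. Of all genes, 2.5% passed in this comparison, 1.67% higher and 0.835% lower. The median log2 change of the 77 was 0.17, against -0.04 for all genes, and 57 were above 0, against 46.2%. At an unadjusted p under 0.05, 16 were higher and 1 lower, against 8.78% and 8.33% of all genes. RP lay above all Normal libraries for 26 of the 77 genes, against 15.4% of all genes, and below them for 2, Mrpl32 and Mrps18b, against 15.4%. The median was 0.20 for large and 0.14 for small subunit genes. Leaving out Normal 1 gave medians of 0.099 for the large and 0.049 for the small subunit, and leaving out Normal 3 gave 0.32 and 0.20. The 95% interval lay within -1 and 1 for 72 of the 77, against 61% of all genes, the exceptions being Mrpl45, Mrpl46, Mrpl21, Mrps11 and Mrps28. RP against Normal and Control against Normal share the Normal libraries, so the values of a gene in both are not independent. These groups also differ in both tumour and extract.

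Mrpl45 (GRCm38 chr11:97315716-97329920) was at 97.1 and 91.6 CPM in RP and at 54.8, 57.1 and 56.5 CPM in Normal. The Normal libraries lay close together and both RP libraries well above them, a 1.68-fold difference (log2 change 0.75 ± 0.14 (SE), adjusted p = 0.0130 in edgeR). Control lay between, closer to Normal. The 3' end of Mrpl45 shares sequence with Adsl, B130021K23Rik, Matn2 and Paxip1, for which a short tag could also be counted. Mrpl46 (chr7:78775236-78783531), a large subunit protein with no bacterial counterpart, was at 53.2 and 45.6 CPM in RP, 40.3, 42.3 and 37.0 CPM in Control, and 30.1, 30.6 and 29.1 CPM in Normal. The 3 groups did not overlap, and RP was 1.65-fold above Normal (log2 change 0.72 ± 0.152 (SE), adjusted p = 0.0247). Mrpl12 (chr11:120484613-120489065) forms the stalk that recruits translation factors, and in human cells its protein also binds the mitochondrial RNA polymerase. It was at 241 and 213 CPM in RP, 181, 211 and 171 CPM in Control, and 153, 136 and 142 CPM in Normal. Again no groups overlapped, with RP 1.58-fold above Normal (log2 change 0.66 ± 0.156 (SE), adjusted p = 0.0439).

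All 3 changes kept their sign in the 19 alternatives, but the calls did not all hold. Mrpl45 passed in 13, Mrpl46 in 12 and Mrpl12 in 10. These counts, like that of Mrpl28 above, include the threshold of 0.1, which any gene called at 0.05 must pass. The call for Mrpl45 was lost without Normal 2 (adjusted p = 0.0537), RP 1 (0.162) or RP 2 (0.0507). For Mrpl46 it was lost without Normal 2 (0.0756), Control 1 (0.0580), Control 3 (0.0502) or RP 1 (0.281). For Mrpl12 it was lost without Normal 2 (0.149), Control 1 (0.0943), Control 2 (0.0615), Control 3 (0.0794), RP 1 (0.332) or RP 2 (0.0917). The number of the 77 genes that passed is given with the number over all genes, which was 330 with all libraries. It was 6 (5 higher and 1 lower) of 670 without Normal 1 and 5, all higher, of 580 without Normal 3. It was 1 of 204 without Control 1, 2 of 226 without Control 2 and 1 of 197 without Control 3, all higher. It was 2 (1 higher and 1 lower) of 230 without RP 2, 0 of 137 without Normal 2 and 0 of 57 without RP 1. With log2 Hba-a1, a haemoglobin transcript, as a covariate, none of the 77 passed against Normal, while the median log2 change was 0.38 for RP and 0.27 for Control.

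**Figure D4:**
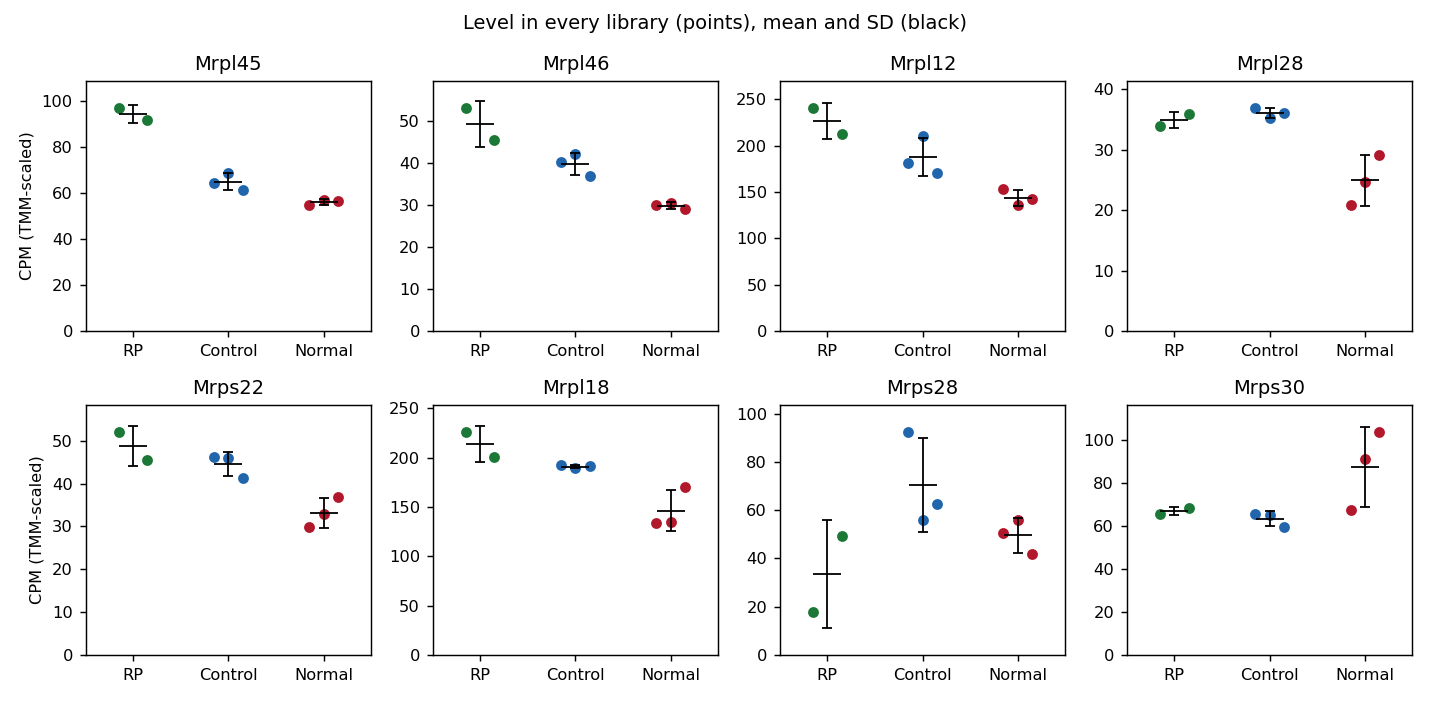
Points give CPM (TMM-scaled) in every library for 8 genes, with the mean and SD of each group in black and RP, Control and Normal from left to right. For Mrpl45, Mrpl46 and Mrpl12 both RP libraries lie above all Normal libraries, and for Mrps28 RP 1 at 17.8 CPM lies below all other libraries.

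Below the genes that passed, Mrps22 was at 52.2 and 45.6 CPM in RP and 29.9, 32.9 and 36.8 CPM in Normal (log2 change 0.56, adjusted p = 0.0837 in edgeR). Mrpl18 was at 226 and 200.4 CPM in RP and 134, 135 and 170 CPM in Normal (0.55, adjusted p = 0.0911). Neither overlapped Normal, and without Normal 3 both passed, with adjusted p of 0.0410 for Mrps22 and 0.0218 for Mrpl18. Over the 19 alternatives, which include the threshold of 0.1, Mrps22 passed in only 2 and Mrpl18 in only 3. Their log2 changes ranged from 0.46 to 0.65 and from 0.46 to 0.69. The most negative estimates were those of Mrps28 (-0.56, adjusted p = 0.428), Mrpl32 (-0.45, adjusted p = 0.21) and Mrps30 (-0.38, adjusted p = 0.302). Mrps30 passed in 1 of the 19 alternatives, without Normal 1 (-0.54, adjusted p = 0.0452), and its estimate shrank to -0.0014 in another. Without RP 2 the log2 change of Mrps28 was -1.47.

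**Figure D5:**
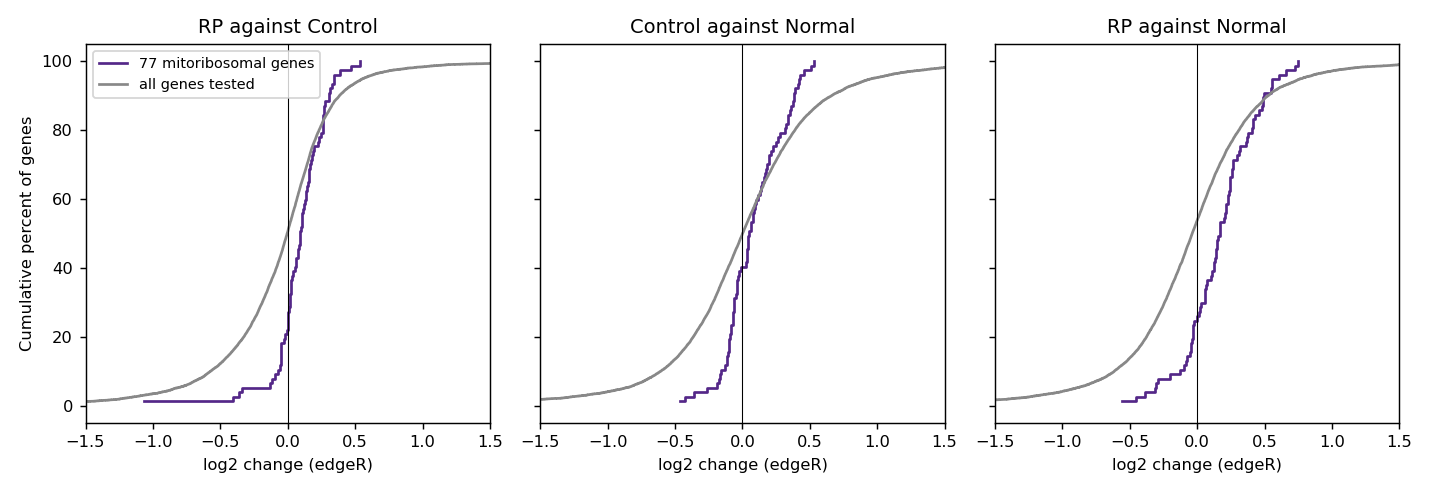
Curves give the cumulative percent of genes at or below each log2 change (edgeR) for the 77 genes in purple and all 13174 genes tested in grey, in the 3 comparisons. The purple curves are steeper than the grey ones, and their medians are 0.09, 0.05 and 0.17 for RP against Control, Control against Normal and RP against Normal.

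The start regions of the genes that passed are shown because the promoters of genes of this class often hold sites for NRF1, nuclear respiratory factor 1, an activator of nuclear genes for mitochondrial proteins. RefSeq promoter windows on GRCm38.p6 matched 68 of the 77 genes. On either strand of the 250 bases before the start, the NRF1 motif (GCGCA, any base, then GCGC) occurred in 10 of the 68 (14.7%), against 1044 of all 27025 genes with a window (3.86%). The ETS family motif CCGGAAG occurred in 16 (23.5%, against 7.05%) and the YY1 motif AAGATGGC in 4 (5.88%, against 1.59%). These windows include genes that muscle does not express, and a match is a description of letters, not of binding. Lines below give the 150 bases before the RefSeq start of 3 genes on the plus strand, with matches to the NRF1 motif in capitals. For Mrpl12 and Mrpl28 the last of these bases lie inside the gene as GENCODE M21 places it.
Mrpl45 upstream, chr11:97315566-97315715: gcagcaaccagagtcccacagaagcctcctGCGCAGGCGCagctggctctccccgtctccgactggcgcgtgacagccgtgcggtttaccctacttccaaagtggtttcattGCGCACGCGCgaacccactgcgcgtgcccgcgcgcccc
Mrpl12 upstream, chr11:120484487-120484636: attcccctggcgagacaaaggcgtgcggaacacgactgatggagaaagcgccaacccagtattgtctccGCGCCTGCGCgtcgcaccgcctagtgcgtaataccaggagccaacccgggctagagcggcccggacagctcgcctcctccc
Mrpl28 upstream, chr17:26123353-26123502: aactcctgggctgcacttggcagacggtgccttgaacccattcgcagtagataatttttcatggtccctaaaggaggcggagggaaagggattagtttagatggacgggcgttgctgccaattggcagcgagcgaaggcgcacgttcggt

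Mrpl45 held 2 NRF1 matches and Mrpl12 held 1, whereas Mrpl28 held none of the motifs in these bases. Mrpl46 shares its start region with another member: by the RefSeq starts it is transcribed leftward from position 78783089 of chromosome 7, and the small subunit gene Mrps11 rightward from position 78783131, so that these starts lie 42 bases apart. In GENCODE M21 the first bases of both genes lie further out and the genes overlap head to head, with starts 412 bases apart. The bases between the RefSeq starts, on the plus strand, hold no match to any of the motifs.
Mrpl46 to Mrps11, chr7:78783090-78783130: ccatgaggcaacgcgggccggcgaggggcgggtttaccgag

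Mrps11, chosen for this neighbour and after its values were seen, was at 17.9 and 19.0 CPM in RP, 18.9, 14.9 and 14.9 CPM in Control, and 13.9, 10.8 and 11.6 CPM in Normal. RP and Control both lay above Normal without overlap, but neither difference passed (log2 change of RP against Normal 0.60, adjusted p = 0.137, and of Control against Normal 0.42, adjusted p = 0.162, in edgeR). Of the 77 genes, 33 had the start of a protein-coding gene of the opposite strand within 1000 bases in GENCODE M21. The 77 genes lay on 17 chromosomes.

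The genes were also divided by whether the protein was listed as having a counterpart in the bacterial ribosome. Over the 29 large subunit genes with one, the median log2 change was 0.11 for RP against Control, 0.11 for Control against Normal and 0.20 for RP against Normal. Over the 19 without one, the medians were 0.13, 0.03 and 0.21 in the same order of comparisons. For the small subunit they were 0.07, 0.08 and 0.17 over the 16 genes listed with a counterpart, and 0.08, 0.02 and 0.07 over the 13 others. Mammals have 3 paralogues of the bacterial protein S18. The division nevertheless placed Mrps18a and Mrps18b among the 13 others, together with Mrps30 of the large subunit. The small subunit medians are therefore only a rough split by origin. For Control against Normal the log2 changes were -0.07 for Mrps18a, -0.36 for Mrps18b and 0.19 for Mrps18c, and none of these passed. Mrps36 had a log2 change of 0.49 for RP against Normal (adjusted p = 0.148), at 43.2 and 54.5 CPM in RP and 32.6, 32.1 and 40.1 CPM in Normal.

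Of 6 further mitoribosomal proteins that have other symbols, none passed in any comparison. Chchd1, a small subunit protein, stood above every Mrpl and Mrps gene in mean level. It was at 496 and 595 CPM in RP, 547, 485 and 487 CPM in Control, and 355, 398 and 530 CPM in Normal, so that the groups overlapped. Gadd45gip1 of the large subunit was at 142 and 119 CPM in RP, 125, 133 and 123 CPM in Control, and 103, 140 and 169 CPM in Normal. Dap3, which binds GTP in the small subunit, was at 52.1 and 49.5 CPM in RP, 46.9, 47.3 and 48.0 CPM in Control, and 40.9, 51.0 and 64.3 CPM in Normal. Ict1, a peptidyl-tRNA hydrolase built into the large subunit, had log2 changes of 0.19, -0.04 and 0.15 for RP against Control, Control against Normal and RP against Normal. For Ptcd3, an RNA-binding protein of the small subunit, these were 0.06, 0.18 and 0.24, and for Aurkaip1 of the small subunit 0.06, 0.02 and 0.08.

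A list of 53 genes for mitochondrial translation, ribosome assembly and handling of mitochondrial messenger RNA, with these 6 included, held no gene that passed in edgeR, higher or lower, in any comparison. At an unadjusted p under 0.05, 2 of the 53 were higher and 2 lower for RP against Control, where 3.95% and 5.03% of all genes were. For Control against Normal 4 were higher and 3 lower, where 13% and 13.3% of all genes were. For RP against Normal 9 were higher and 0 lower, where 8.78% and 8.33% of all genes were. The median log2 changes of the list were 0.10, 0.08 and 0.15 in that order. The 15 translation factors had medians of 0.03, 0.25 and 0.25, and the 27 assembly and ribosomal RNA genes 0.14, 0.11 and 0.08. A few genes of this list, chosen after their values were seen, had groups that did not overlap or a library far from the rest. Fastkd2, which binds the 16S ribosomal RNA of the large subunit, was at 46.3 and 45.3 CPM in RP, 31.2, 29.6 and 27.5 CPM in Control, and 27.5, 30.7 and 34.1 CPM in Normal. RP lay above both other groups (log2 change 0.64 against Control, adjusted p = 0.186, and 0.58 against Normal, adjusted p = 0.0761). Lrpprc, which stabilizes mitochondrial messenger RNAs, was at 197 and 72.1 CPM in RP 1 and 2, against 72.0, 80.3 and 58.6 CPM in Control and 67.9, 115 and 64.3 CPM in Normal. RP 1 was the highest library, followed by Normal 2, while RP 2 lay among the rest, and the log2 change of RP against Control was 0.94 (adjusted p = 0.409). The 3' end of Lrpprc has near copies in Gm28503 and Gm48031, so its count is uncertain.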

How the data were processed

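The deposited tables hold raw read counts per gene symbol, 1 table for each library, which the authors did not normalize. Per the labels' protocols, 500 ng of RNA went into each Lexogen QuantSeq library, which yields 3' tags. Bowtie2, edgeR and build mm10 are listed in the submitters' processing notes. Their roles, the counting tool, the strand counted and the annotation are not given in the sources used here. For 13 of the 77 genes the last 300 bases overlap a gene of the opposite strand, for 4 one of the same strand, and for 12 they match another gene at 95% identity over 60 bases, so their counts are uncertain.

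Libraries were grouped by their titles. Genes passing filterByExpr were tested with edgeR 4.0.16 in R 4.3.3 by its quasi-likelihood test on TMM-scaled counts of all 8 libraries together (common biological coefficient of variation, 0.195). Tests were 2-sided and adjusted over 13174 genes by Benjamini-Hochberg, with a threshold of 0.05. The 44 extra rows of 35 repeated symbols were kept apart. Standard errors came from the log2 change and its F statistic. The Wilson intervals cover counting error only. The code was tested on simulated data. Gene positions are those of GENCODE M21 (GRCm38), promoter windows and their starts those of RefSeq, near copies were found with BLAST 2.17.0, and figures were drawn with matplotlib 3.10.9.

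The members, lists, comparisons and alternatives were chosen with earlier results of these data known. Genes were named if they passed, were among the 3 highest of a subunit, were among the 3 most positive or negative log2 changes of a comparison at a mean of at least 5 CPM, had a place that differs from the symbol, or had groups without overlap at 20 CPM or more (at most 5). Alternatives were DESeq2 1.42.0, limma-voom (limma 3.58.1), upper-quartile or RLE scaling, a filter at a mean of 5 CPM or none, only the 2 groups compared, a replicate block, removal of haemoglobin genes and Rn45s, log2 Hba-a1 as a covariate, a threshold of 0.1, placement of subunits by structure and leaving out each library. Where that left a lone RP library, its spread was taken to equal that of Control and Normal.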

Additional observations from a re-analysis of the deposited data

How the results depend on the processing

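Over 19 alternatives to the quasi-likelihood fit, no gene past the threshold changed sign. The medians for Control against Normal did so without Normal 1, at -0.01126 for the large and -0.04074 for the small subunit. The count of the 77 genes that passed for RP against Control was 0, and 1 with no filter. For Control against Normal it was 1, but 0 with only the 2 groups compared or the Hba-a1 covariate and 5 at a threshold of 0.1. For RP against Normal it was 3, but 0 with only the 2 groups compared or the covariate and 6 at 0.1. The covariate gave large and small subunit medians of 0.2875 and 0.236 for Control against Normal and 0.4089 and 0.2924 for RP against Normal. The list of 53 translation and assembly genes had 1 call for RP against Control with no filter or only 2 groups, 1 for Control against Normal with upper-quartile normalization, a mean CPM of at least 5, DESeq2 or limma-voom and 2 with no filter or at 0.1, and 3 for RP against Normal at 0.1. Over all genes, RP against Control had 23 calls, 204 with no filter, 11 at a mean CPM of at least 5, 112 with DESeq2, 10 with limma-voom, 121 with only 2 groups and 51 at 0.1. RP against Normal had 330, 718 with no filter, 663 with DESeq2, 100 with only 2 groups, 104 with the covariate and 710 at 0.1. Control against Normal had 1376, 1283 with only 2 groups, 382 with the covariate and 2201 at 0.1. Upper-quartile normalization moved the share of higher calls in this comparison to 55.3%, against 47.8%. The cause of these moves was not tested.

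Leaving out 1 library gave 0 to 1 of the 77 genes for RP against Control, 0 to 2 for Control against Normal and 0 to 6 for RP against Normal. The translation and assembly list had 0 to 2 calls in both comparisons with Normal. All-gene counts were 8 to 72, 608 to 1858 and 57 to 670 in the order RP against Control, Control against Normal, RP against Normal. For RP against Normal the median ran from 0.09891 to 0.3167 for the large and from 0.04908 to 0.2001 for the small subunit. Deviations from the group means of libraries with the same replicate number had correlations of -0.068 to 0.080. Such deviations sum to 0 within a group, which makes the values of RP 1 and RP 2 exact opposites. These correlations therefore cannot decide whether the numbers pair the libraries. With the replicate block, 0 of the 77 genes passed for Control against Normal, where 1218 of all 13174 genes did. For RP against Normal 0 of the 77 passed, where 262 of all genes did. In that fit 1 translation and assembly gene passed for Control against Normal. The median standard error of the log2 changes of the 77 genes was 0.1738 for RP against Control, 0.1552 for Control against Normal and 0.1737 for RP against Normal.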
